A study of Mus musculus with 7 samples.

Results

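The imprinted Igf2r domain of mouse chromosome 17 was examined through 4 genes, Igf2r, its antisense transcript Airn, Slc22a2 and Slc22a3, which were found by symbol among the 43346 genes of the growth plate count files. By the GRCm38 annotation, Igf2r (ENSMUSG00000023830) occupied chr17:12682406-12769664 on the minus strand. Airn (ENSMUSG00000078247) occupied chr17:12741311-12860136 on the plus strand. Its start lay in an Igf2r intron, 28353 bases inside the gene, and its span ran across the Igf2r start. Slc22a2 (ENSMUSG00000040966, chr17:12584132-12628488, plus strand) and Slc22a3 (ENSMUSG00000023828, chr17:12418960-12507704, minus strand) started 185.5 and 262.0 kb from the Igf2r start. Both lay beyond the end of Igf2r, where the Airn span does not reach. The other 44 genes counted within 1 Mb of Igf2r served as the surroundings.

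Igf2r encodes the cation-independent mannose 6-phosphate receptor, which carries newly made lysosomal enzymes from the Golgi to endosomes and removes insulin-like growth factor II from the cell surface for degradation. In mice, most tissues express Igf2r from the maternal chromosome, and Airn, a long noncoding RNA that is mostly left unspliced, is transcribed from the paternal chromosome. Slc22a2 and Slc22a3 encode organic cation transporters, and their maternal expression is known from the placenta.

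The promoter windows of Igf2r and Airn are printed first because those genes were counted on opposite alleles, although the Airn window lies inside Igf2r. Each window is 300 bases of the RefSeq promoter table (GRCm38.p6), 250 before and 50 after the start, written 5′ to 3′ on the gene's own strand, and capitals mark every CG. The Igf2r window is chr17:12769657-12769956, minus strand, and the Airn window is chr17:12741061-12741360, plus strand.
Igf2r: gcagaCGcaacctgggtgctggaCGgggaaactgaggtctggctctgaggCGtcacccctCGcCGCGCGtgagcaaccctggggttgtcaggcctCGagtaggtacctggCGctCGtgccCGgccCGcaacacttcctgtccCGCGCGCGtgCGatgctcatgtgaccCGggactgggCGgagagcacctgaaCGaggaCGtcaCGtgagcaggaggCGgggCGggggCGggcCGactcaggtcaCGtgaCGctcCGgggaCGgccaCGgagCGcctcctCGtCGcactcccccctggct
Airn: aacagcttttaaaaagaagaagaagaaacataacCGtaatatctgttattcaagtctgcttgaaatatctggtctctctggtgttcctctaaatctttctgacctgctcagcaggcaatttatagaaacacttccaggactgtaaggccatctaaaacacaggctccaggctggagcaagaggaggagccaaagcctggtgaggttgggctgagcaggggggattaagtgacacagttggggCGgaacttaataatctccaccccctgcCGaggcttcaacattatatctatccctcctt
The Igf2r window held 34 CG and was 70.7% G or C, and only 7.7% of the 32851 windows in the table held as many. The Airn window held 3 CG and was 45.7% G or C, below the median of 7 CG, and 76.7% of windows held as many. The windows of Slc22a2 and Slc22a3 held 8 and 5 CG, near that median. At least 1 CG stood in 94.6% of all windows. Each window covers only 300 bases, so it does not show whether CG are dense farther from a start.

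One more sequence carries a result below. Gm23833 (ENSMUSG00000089525) is annotated as a short noncoding RNA of 252 bases at chr17:12770631-12770882, plus strand, inside the Airn span and 967 bases upstream of the Igf2r start. Its sequence is that of the GENCODE transcript (GRCm38), 5′ to 3′, in lower case throughout because no base of it is singled out.
Gm23833: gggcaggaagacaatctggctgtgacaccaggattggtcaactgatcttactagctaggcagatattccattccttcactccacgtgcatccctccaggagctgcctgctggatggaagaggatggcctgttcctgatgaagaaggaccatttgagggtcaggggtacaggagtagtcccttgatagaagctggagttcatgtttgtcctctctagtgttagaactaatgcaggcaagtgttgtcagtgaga

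The samples were tibial growth plates, proximal and distal, of 7 male F1 mice from C57BL/6J and CAST/EiJ, killed at 21 d and given no treatment, with 1 library per mouse and no other group. Growth plate was dissected as tissue, so cells of adjoining bone and marrow were included, and fewer cells of a type and less RNA per cell cannot be told apart in such libraries. Each gene had an estimated count for the B6 allele, for the CAST allele and for both together. The cross was made in 1 direction, so strain and parent of origin cannot be told apart for any gene. Counts per library ran from 14098019 to 37849667, with a median of 27603769. Mitochondrial counts, which follow the mother, were 99.98 to 99.99% B6, counts of X-linked genes were 90.2 to 91.6% B6, and counts of autosomal genes were 49.4 to 49.7% B6. Summed chondrocyte markers (Col2a1, Acan, Col9a1, Col10a1, Sox9, Matn3 and Comp) reached 55165 to 92105, in counts-per-million units (CPM, the count relative to the library's total). Osteoblast markers (Bglap, Ibsp and Col1a1) reached 35247 to 64678 CPM, erythroid 7692 to 18853, osteoclast 2130 to 3233, muscle 1268 to 3150, neutrophil 887 to 1894, endothelial 112 to 178 and B cell markers 58.6 to 195 CPM.

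Igf2r was counted almost wholly on the B6 allele in every mouse. Its total count was 10354, 9711, 8982, 6159, 11959, 4422 and 7033 for mice 1, 2, 3, 4, 5, 7 and 8, respectively. The B6 allele took 97.8, 97.5, 97.9, 97.4, 97.9, 98.0 and 97.6% of these counts, in the same order of mice. The percentages lay within 1 point of each other, and the shallowest library, mouse 7, gave a 95% Wilson interval of 97.5 to 98.3%. Such intervals cover counting error only. The mean was 97.7% ± 0.219 (SD, n = 7), with 191 ± 57.7 counts on the CAST allele against 8183 ± 2567 on the B6 allele. The geometric mean over mice of the ratio of B6 to CAST counts, with 0.5 added to each, was 42.8. The log2 ratio of CAST to B6 on the same scale was -5.42 ± 0.14 and was negative in 7 of 7 mice (exact sign-flip permutation test, two-sided, P = 0.0156, the smallest that 7 mice allow).

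Across all genes, edgeR's likelihood-ratio test at a false discovery rate (FDR) under 0.20 called 7111 of 21805 genes, or 32.6%, with 15.4% higher on CAST and 17.2% higher on B6. Of the 4 domain genes, 3 passed the filter for testing and 2 were called, Igf2r toward B6 and Airn toward CAST. For Igf2r the log2 fold change (CAST over B6) was -5.39, with an FDR too small to be stored, and edgeR's quasi-likelihood test gave an FDR of 4.34e-20. The median absolute log2 fold change over all tested genes was 0.22, and 501 genes had a larger one than Igf2r. The estimated total of Igf2r was a whole number, to within 0.0001 counts, in 7 of 7 mice.

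**Figure D1:**
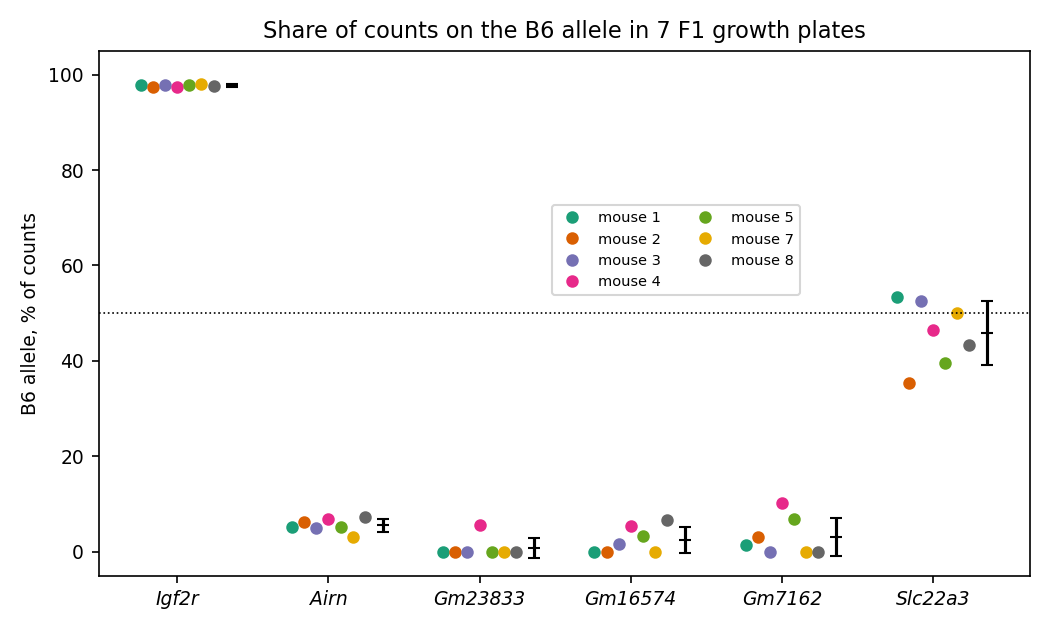
Percentage of counts on the B6 allele (vertical axis) for Igf2r, Airn, 3 loci inside the Airn span and Slc22a3, with 1 point per mouse, and the mean with SD over 7 mice at the right of each set. The Igf2r points sit between 97.4 and 98.0%, the Airn points between 3.02 and 7.32%, and the Slc22a3 points on either side of the dotted line at 50%.

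Airn was counted mostly on the other allele. Ordered as above from mouse 1 to mouse 8, CAST counts were 372, 221, 289, 122, 269, 118 and 146. The B6 allele took 5.21, 6.18, 4.92, 6.88, 5.30, 3.02 and 7.32% of the total, in the same order. No mouse came near an even division, and the Airn percentages did not overlap those of Igf2r. The mean was 5.55% ± 1.43 (SD, n = 7), from total counts of 122 to 392. In mouse 7, with the fewest counts, the 95% Wilson interval was 1.28 to 8.13%.

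The geometric mean ratio of CAST to B6 counts of Airn was 16.8, a log2 ratio of 4.07 ± 0.41 that was positive in 7 of 7 mice (exact sign-flip permutation test, P = 0.0156). The edgeR log2 fold change was 4.08 (FDR = 9.58e-89), with an FDR of 4.52e-14 by the quasi-likelihood test. By the same tolerance, estimated totals were whole numbers in 5 of 7 mice and fractional in mice 3 and 4. The less-counted allele held a smaller percentage of Igf2r than of Airn, 2.29% against 5.55%. That difference of -3.26 ± 1.25 points had the same sign in 7 of 7 mice (exact sign-flip permutation test, P = 0.0156). What part of these minor percentages came from reads that cannot tell the alleles apart was not tested. Igf2r and Airn share 28354 bases of span on opposite strands, with no exon base in common. Whether counting used strand is not given in the sources used here. What part of the minor percentages came from unspliced reads of the other gene was likewise not tested.

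Annotated Airn exons amounted to 3597 bases, only 3.03% of the span of 118826 bases, so the Airn count sampled a small part of the transcribed stretch. The files counted 3 genes that lie wholly inside that span, Gm23833 and the processed pseudogenes Gm16574 (chr17:12818793-12819537, plus strand) and Gm7162 (chr17:12819819-12820842, minus strand). No exon base of theirs fell in an Airn exon. They were grouped by position after their values had been seen.

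All 3 enclosed loci were counted on the CAST allele. Gm23833 had totals of 42, 13, 28, 18, 27, 10 and 21 counts in mice 1, 2, 3, 4, 5, 7 and 8, and 1 B6 count in all, in mouse 4. Gm16574 had 24 to 102 counts with a mean of 2.41% B6 (0 to 6.67%), and Gm7162 had 39 to 120 counts with a mean of 3.09% B6 (0 to 10.3%). Every mouse had more CAST than B6 counts at each of the 3 loci. For the sum of the 3, the CAST percentage was 99.3, 98.3, 99.5, 92.3, 95.3, 100 and 97.9%, a mean of 97.5% ± 2.79 (SD, n = 7). Mouse 4 was the lowest. Each was called by edgeR, with FDR values of 9.35e-28 for Gm23833, 2.65e-47 for Gm16574 and 3.35e-62 for Gm7162. Totals of both Gm16574 and Gm7162 were whole numbers in 5 of 7 mice and fractional in mice 2 and 4. The totals of all 3 loci together were whole in those mice, at 197 and 115 counts. The fractions of Gm16574 and Gm7162 thus completed each other. How many of their counts these 2 loci shared was not tested. The log2 fold changes of Gm16574 and Gm7162 were 5.69 and 4.94. Gm7162 is annotated on the strand opposite to Airn, and whether the counting used strand is not given in the sources used here.

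Mas1, a G protein-coupled receptor gene with 19058 bases of its own span inside that of Airn and no shared exon base, had 7 to 27 counts. Its B6 percentage went from 2.01% in mouse 2 to 100% in mouse 7, with mice on both sides of an even division. It was not called (edgeR log2 fold change 0.45, FDR = 0.666).

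Levels were set side by side per kilobase (kb) of annotated exon, as CPM per kb with both alleles together. Igf2r stood at 33.9 ± 1.76 (SD, n = 7), with mouse 1 highest at 36.4 and mouse 4 lowest at 31.5. Below it came Gm23833 at 3.40 ± 1.16, Gm7162 at 3.07 ± 0.600, Gm16574 at 2.96 ± 0.893 and Airn at 2.41 ± 0.666, whose ranges overlapped. Slc22a3 followed at 0.391 ± 0.0625 and Slc22a2 at 0.0162 ± 0.0139, and the ranges of Igf2r, Airn, Slc22a3 and Slc22a2 did not overlap. This order, and the test of it below, rest on exon lengths from GENCODE, while the gene models used to make the counts may differ.

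**Figure D2:**
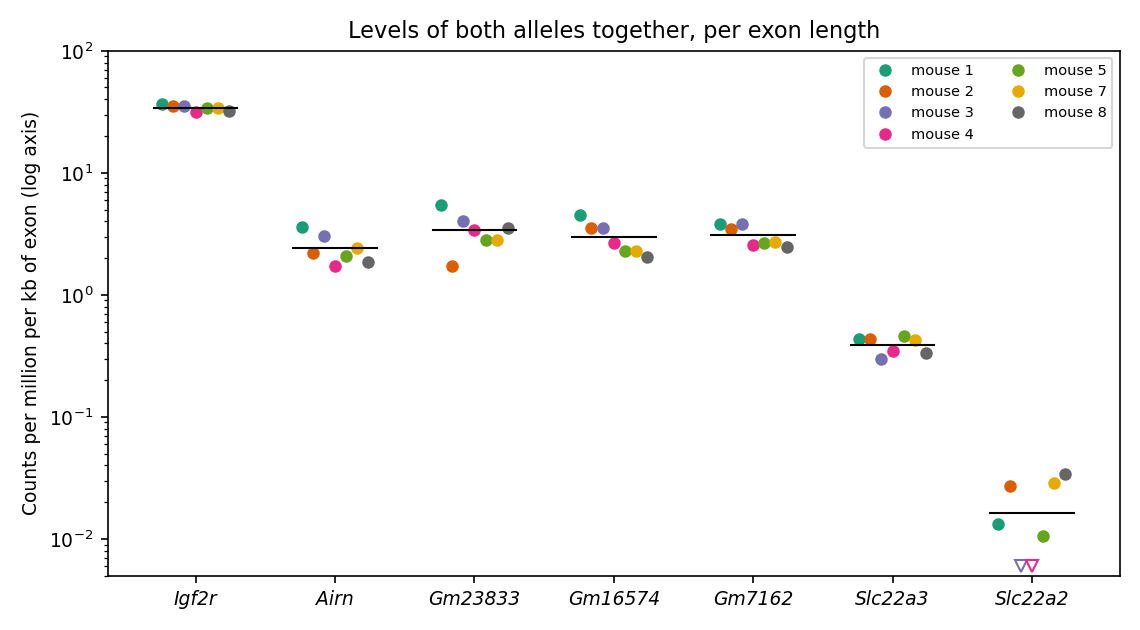
Level of both alleles together in CPM per kb of exon (vertical log axis) for the domain genes and the 3 loci inside the Airn span, with 1 point per mouse and a line at the mean. Open triangles mark mice with no count. Igf2r lies above the rest in every mouse, and Slc22a2 lies below Slc22a3 in every mouse.

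On each allele alone, the order of Igf2r and Airn turned over. On the B6 allele, Igf2r stood at 33.1 ± 1.75 CPM per kb and Airn at 0.130 ± 0.0350, a geometric mean ratio of 263 over mice, with Igf2r higher in 7 of 7. On the CAST allele, Igf2r stood at 0.775 ± 0.0691 and Airn at 2.28 ± 0.645. This Igf2r level rests on the 2.29% of its counts given to CAST, whose source was not tested. The geometric mean ratio of Airn to Igf2r on that allele was 2.87, with a range over mice of 2.00 to 4.18 and Airn higher in 7 of 7. Over 5 such comparisons, the exact sign-flip permutation test gave P = 0.0156 and an adjusted P of 0.0260 for each of these. The remaining comparisons set Airn against its enclosed loci on the CAST allele. Gm7162 was 1.32 times Airn (higher in 7 of 7 mice, exact permutation adjusted P = 0.0260), Gm23833 was 1.45 times and Gm16574 was 1.26 times (each higher in 6 of 7 mice, exact permutation adjusted P = 0.0312). The exons of these loci are short, and the effect of exon length on the counts was not tested.

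Slc22a3, an organic cation transporter gene, was counted on both alleles at a low level. Totals were 60, 58, 37, 33, 79, 27 and 36 counts, again from mouse 1 to mouse 8. The B6 allele took 53.3, 35.4, 52.6, 46.6, 39.6, 49.98 and 43.4% of them. Mice 1 and 3 had more B6 than CAST counts and the other 5 had more CAST counts, so the mice did not share a direction. The mean was 45.8% ± 6.73 (SD, n = 7), and the 330 counts of all mice were 44.8% B6 (95% Wilson interval 39.6 to 50.2%).

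The log2 ratio of CAST to B6 for Slc22a3 was 0.24 ± 0.39 (exact sign-flip permutation test, P = 0.141), and the edgeR log2 fold change was 0.32 (FDR = 0.321, DESeq2 SE 0.229). With the mouse as a block, which pairs the alleles of 1 animal, the same fold change of 0.32 had an FDR of 0.172 and passed the threshold of 0.20, as did the blocked quasi-likelihood fit (FDR = 0.184). The blocked likelihood-ratio fit called 42.7% of all tested genes, 20.9% toward CAST. The direction of Slc22a3 was toward CAST, the allele on which Igf2r was low.

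Slc22a2, the neighbouring transporter gene, had 1, 2, 0, 0, 1, 1 and 2 counts in mice 1, 2, 3, 4, 5, 7 and 8, or 7 in all. Every library was below a floor of 3 counts, which corresponds to 0.0793 to 0.213 CPM, so no difference between alleles could be measured. Plg, the plasminogen gene next to Slc22a3, had 0 to 1 count.

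Within 1 Mb of Igf2r, 48 of 64 annotated genes were in the files, 29 were tested and 8 had no count in any mouse. Of those tested, 14 were called, 9 toward B6 and 5 toward CAST, or 48.3% against 32.6% of all tested genes. With the mouse as a block, 8 were called toward CAST and 7 toward B6, beside 42.7% of all genes in that fit (20.9% toward CAST and 21.8% toward B6). Sod2, Slc22a3 and Tcp1 were gained and Tcte2 and Mrgprh were lost. The median log2 fold change was -0.03, beside 0.01 over all tested genes. With the domain genes left out, 12 of 26 tested genes were called without the block, or 46.15%, among them the loci inside the Airn span. Of the 18 genes, domain genes included, that reached 10 counts in all mice, 10 were called. The share called over all genes that reached 10 counts is not given here, so this count has no background beside it.

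Outside the Airn span the called log2 fold changes ranged from -2.29 to 0.73, beside -5.39 for Igf2r and 4.08 for Airn. Agpat4, which encodes an acyltransferase of phospholipid synthesis, was 59.7% ± 2.93 B6 (log2 fold change -0.54, edgeR FDR = 1.98e-06), with more B6 counts in 7 of 7 mice. Its estimated totals were whole numbers in 3 of 7 mice. Wtap, a subunit of the RNA adenosine methyltransferase complex, was 59.3% ± 6.94 B6 (-0.55, edgeR FDR = 0.00023), in 6 of 7 mice. Totals of Wtap were fractional in every mouse. Acat2, a cytosolic acetyl-CoA acetyltransferase, went toward CAST at 37.8% ± 1.78 B6 (0.73, edgeR FDR = 6.15e-11), in 7 of 7 mice, but its totals were fractional in all of them, and what part was shared with its paralog Acat3 was not tested. The small nucleolar RNA Gm26130, which lies within Tcp1, was 69.4% ± 11.5 B6 (-1.32, edgeR FDR = 0.00256), also with fractional totals. Tcte2, with 13.4 to 41.2 counts, was called at -0.85 (edgeR FDR = 0.0981) but not with the mouse as a block (FDR = 0.328), and its exact sign-flip permutation P was 0.375.

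The called genes with fewer than 10 counts in some mouse were Pnldc1, Gm16046, Mrgprh and 4732491K20Rik, all toward B6, and they are named here after their values were seen. Pnldc1 had the largest log2 fold change of the genes called outside the Airn span other than Igf2r, at -2.29 (edgeR FDR = 6.02e-05) and 87.7% B6 on 5 to 15 counts per mouse. Gm16046 followed at -1.47 (edgeR FDR = 0.0181) and 74.2% B6 on 5 to 16 counts. Mrgprh was at -0.96 (edgeR FDR = 0.171, 0.255 with the block) and 4732491K20Rik at -0.87 (FDR = 0.0695). Genes that were not called included the kinase gene Map3k4 (51.0% B6, edgeR FDR = 0.975), which lies beyond Slc22a3. On the far side of Airn, the chaperonin subunit gene Tcp1 (48.8%, FDR = 0.544, 0.129 with the block), the mitochondrial ribosomal protein gene Mrpl18 (48.3%, FDR = 0.75), the superoxide dismutase gene Sod2 (47.2%, FDR = 0.208, 0.0620 with the block) and the junction gene Afdn (52.3%, FDR = 0.499) were not called without the block either. Acat3 averaged 42.0% B6 over a wide spread (FDR = 0.787).

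**Figure D3:**
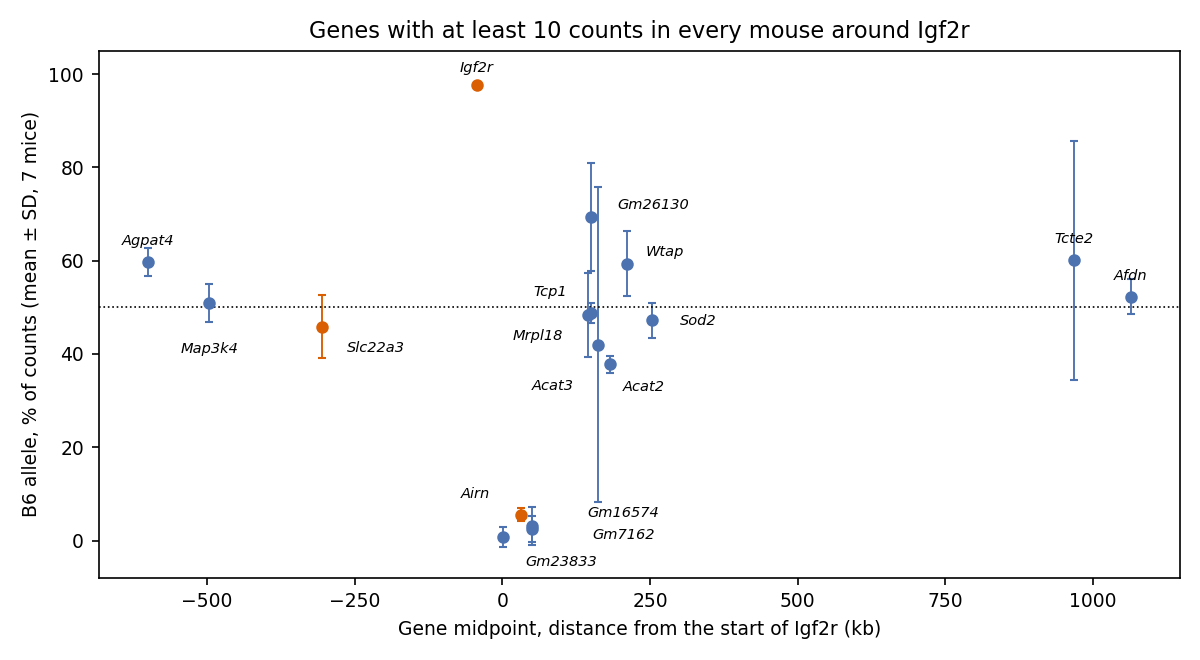
Mean percentage of counts on the B6 allele with SD over 7 mice (vertical axis) against the distance of each gene's midpoint from the Igf2r start in kb (horizontal axis), for 17 of the 18 genes that reached 10 counts in all mice. Igf2r, Airn and Slc22a3 are orange and other genes blue. Igf2r lies at 97.7%, Airn and the 3 enclosed loci lie at 0.794 to 5.55%, and the means of the others lie between 37.8 and 69.4%.

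Other imprinted genes gave a scale for how one-sided Igf2r was. Of 6 genes known to be expressed from the mother, 5 were called, all toward B6, and of 11 known to be expressed from the father, 10 were called, all toward CAST. Over all tested genes, 17.2% were called toward B6 and 15.4% toward CAST. The medians of the lists were -4.38 and 3.86 on the log2 scale (CAST over B6). Phlda2 (edgeR FDR = 0.274) and Nnat (FDR = 1) were the genes not called. The log2 ratio of Nnat ran only from -0.072 to 0 over mice, so its estimates were divided almost evenly. Whether reads of Nnat could tell the alleles apart was not tested. For 12 reference genes that reached 100 counts in all mice, the percentage of counts on the less-counted allele was compared with that of Igf2r within each mouse.

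The less-counted allele of Igf2r held 2.29% of its counts. That was higher in 7 of 7 mice than for Sgce (0.00761%), H19 (0.0992%), Meg3 (0.230%) and Plagl1 (1.27%). It was lower in 7 of 7 mice than for Mest (6.43%), Grb10 (7.34%), Ndn (9.43%), Igf2 (10.7%) and H13 (37.3%). Each of those 9 comparisons had an exact sign-flip permutation P of 0.0156 and an adjusted P of 0.0208. Igf2, which encodes the growth factor that the receptor binds, was thus counted on CAST, opposite to Igf2r, with a larger minor percentage.

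Peg3 (0.608%) was lower than Igf2r in 6 of 7 mice by 1.68 ± 0.964 points (exact permutation adjusted P = 0.0375). Leaving out mouse 1, 3, 4, 5, 7 or 8 gave 1.56 to 1.78 points with an exact permutation P of 0.0625. Peg10 (4.46%) was higher in 6 of 7 mice and did not pass after adjustment (exact permutation adjusted P = 0.0511). Cdkn1c, a cell cycle inhibitor expressed from the mother, had 2.68% on the less-counted allele, and its difference from Igf2r of -0.39 ± 0.665 points did not exceed the spread between mice (exact permutation P = 0.141).

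**Figure D4:**
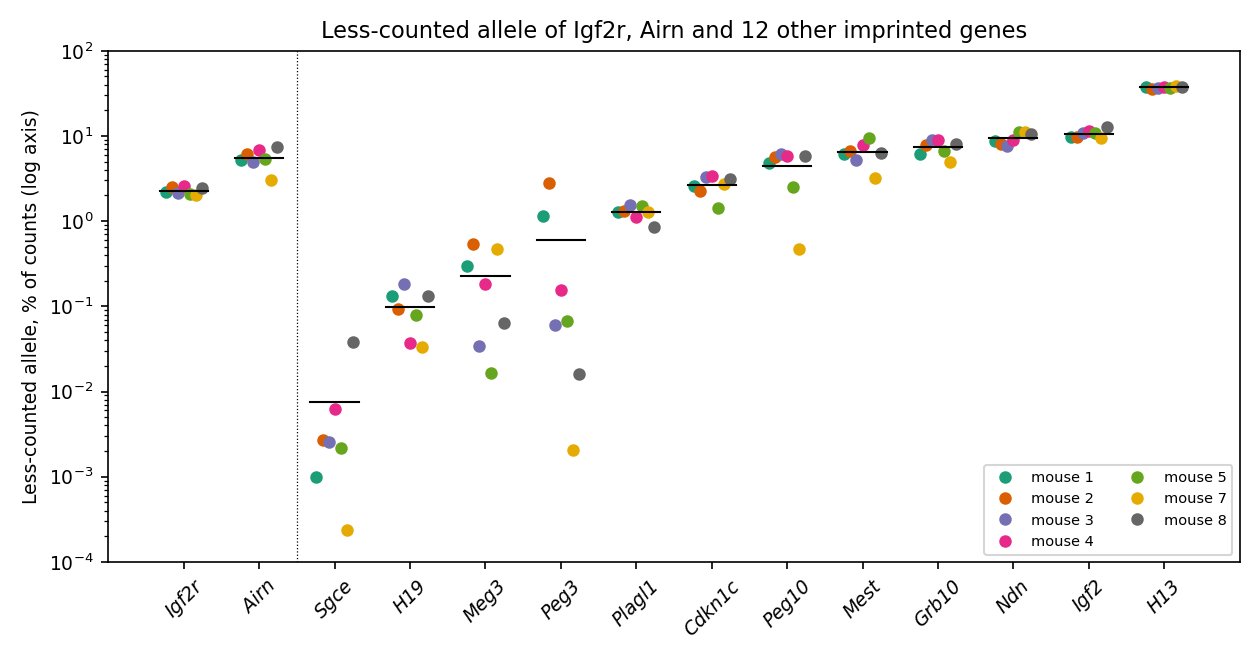
Percentage of counts on the less-counted allele (vertical log axis) for Igf2r, Airn and 12 other imprinted genes ordered by their means, with 1 point per mouse and a line at the mean. Igf2r, at a mean of 2.29%, lies between Plagl1 and Cdkn1c, and Airn, at 5.55%, lies between Peg10 and Mest.

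For the receptor's own pathway, the share of genes called was near the background. Of 20 genes of mannose 6-phosphate sorting, 5 were called, or 25%, beside 32.6% of all tested genes, with a list median of 0.02. Plin3, whose product binds the receptor's tail (log2 fold change -0.36, edgeR FDR = 0.000616), and Ap1s1, an adaptor subunit (-0.26, FDR = 0.0900), were higher on B6. The adaptor subunit Ap1m1 (0.53, FDR = 2.59e-05), the sorting nexin Snx6 (0.38, FDR = 0.0301) and the coat adaptor Gga2 (0.22, FDR = 0.0848) were higher on CAST. M6pr, the cation-dependent receptor for the same tag, was 48.3% ± 3.41 B6 (0.12, FDR = 0.459). Gnptab, which makes the tag, was 52.0% ± 2.18 B6 (-0.10, FDR = 0.489, 0.0598 with the block). Per kb of exon, M6pr stood at 15.3 ± 2.01 CPM, below the 33.9 of Igf2r. With the mouse as a block 9 of 20 were called, beside 42.7% of all tested genes in that fit, the added ones being Gnptab, Nagpa, Gga1 and Ap1b1. Without mouse 2 the count was 3.

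Of 14 silencing factors, which include the histone methyltransferases Ehmt1, Ehmt2 and Ezh2 and the DNA methyltransferases Dnmt1 and Dnmt3a, Eed was the 1 called (log2 fold change -0.49, edgeR FDR = 0.0400), or 7.14% beside 32.6% of all tested genes, with a list median of -0.01. With the mouse as a block 7 were called, beside 42.7% of all genes, in both directions, among them Uhrf1 (blocked edgeR FDR = 2.74e-07) and Dnmt1 (blocked FDR = 0.0121). Without mouse 3 or mouse 5 the count was 2, and without mouse 4 it was 3. Of 6 other organic cation transporter genes, 4 were tested and Slc29a4 was called, at 3 to 22 counts per mouse (-0.83, edgeR FDR = 0.0666), which is 25% of those tested beside 32.6% at large. Without mouse 3 or mouse 8 none was called, and without mouse 4 the count was 2. Slc22a5, the carnitine transporter gene, was 46.5% ± 6.15 B6 (edgeR FDR = 0.263), and Slc22a4 was 48.8% ± 11.3 (FDR = 0.745). Per kb they stood at 3.65 ± 0.602 and 3.01 ± 0.604 CPM, above the 0.391 of Slc22a3.

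The total level of Igf2r varied little between mice, and that of Airn varied more. Igf2r was 338.5, 326.4, 325.4, 293.0, 316.0, 313.7 and 296.8 CPM in mice 1, 2, 3, 4, 5, 7 and 8, with a mean of 316 ± 16.4 and a coefficient of variation of 5.18%. Airn was 12.8, 7.93, 11.0, 6.22, 7.50, 8.65 and 6.67 CPM, with a mean of 8.68 ± 2.40 and a coefficient of variation of 27.6%. Mice 1 and 3 were the highest for Airn and mice 4 and 8 the lowest for both genes. Slc22a3 ran from 1.34 to 2.09 CPM with a mean of 1.76 ± 0.282. These levels depend on what is in the total, of which the abundant noncoding RNAs Rn7s1, Rn7s2 and Rn7sk made up 15.5 to 23.8%.

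Across the 7 mice, Airn and Igf2r levels in CPM were correlated (Pearson r = 0.859, exact permutation P = 0.0155, adjusted over 3 relations 0.0232), and Spearman's rho of 0.821 did not pass after adjustment (exact permutation P = 0.0341, adjusted 0.102). Without mice 1 and 3, r was 0.803. The number of genes that reached this r with Igf2r is not given here, but 278 of 9942 had r over 0.9 in log2 CPM. The libraries share their totals between genes, so the P-values do not mark a link particular to this pair. For Airn and the summed enclosed loci, r was 0.899 (exact permutation P = 0.00833, adjusted 0.0232) and rho was 0.714 (P = 0.0881, adjusted 0.132), but r fell to 0.229 without mice 1 and 3, so that relation rests on those mice. For Airn and Slc22a3, r was 0.0697 (exact permutation P = 0.875) and rho 0.143 (P = 0.783), with r = 0.751 without mice 1 and 3. Summed endothelial markers were also highest in mice 1 and 3, at 178 and 162 CPM against 112 to 146 in the others, and osteoblast markers were highest in mice 1 to 3, at 53362 to 64678 CPM against 35247 to 45775 in the others. Summed erythroid markers (7692 to 9600 CPM against 10250 to 18853) and neutrophil markers (887 to 1093 CPM against 1313 to 1894) were lowest in mice 1 to 3. The part of these cell types in the relations was not tested.

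The genes most like Igf2r in allele percentage and in level were found over all expressed genes. Among 9632 autosomal genes, 5 had a mean absolute difference from Igf2r of under 1 percentage point over the 7 mice. These were 4933427J07Rik (0.626 points), Cdkn1c (0.676), Zfp488 (0.764), Hist1h4m (0.795) and Tnfrsf22 (0.972). By the correlation of log2 CPM over the 7 libraries, the closest of 9942 genes were Nek6 (r = 0.992), Mprip (0.988), Npc1 (0.986), Kirrel (0.985) and Afap1l2 (0.985). A total of 278 genes had r over 0.9. With 7 libraries that share their totals between genes, this is a description only.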

How the data were processed

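RNA of each mouse was depleted of ribosomal RNA and made into stranded libraries (Illumina TruSeq Stranded Total RNA, Ribo-Zero Gold). Using Bowtie, the authors aligned reads to B6 (mm10) and CAST versions of the transcriptome at once, allowing up to 3 mismatches, and EMASE estimated the reads of each allele. The deposited values are these estimated counts per gene, not normalized, for B6, CAST and both. The model divides reads that match more than 1 allele or gene. The deposited counts summed to more than the read pairs stated per library, for a reason not given in the sources used here, so a count may not be 1 fragment, and intervals, floors and P-values from counts may be too narrow. Whether counting used strand is likewise not given.

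Counts were rounded and fitted with edgeR 4.0.16 in R 4.3.3 (TMM factors, estimateDisp, glmFit, glmLRT, CAST against B6), for genes with a count above 0 on at least 1 allele in every mouse, as in the study's methods. This kept 21805 genes, some with estimates far below 1 count. FDR was adjusted over all of them and a gene was called under 0.20. DESeq2 1.42.0, edgeR's quasi-likelihood test, other scalings, filters, thresholds and omissions of each mouse were alternatives. Single genes were tested with exact two-sided sign-flip permutation tests of log2 ratios over 7 mice (pseudocount 0.5). Per-kb levels used GENCODE M21 exon lengths, and 98.0% of the identifiers in the files were in that release. The code was tested on simulated data.

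The alleles of a mouse come from 1 library, so the mouse pairs them. Deviations from the allele means correlated at 0.184 on average within a mouse (lowest 0.0470, over 15111 genes) and at -0.03 between mice. Where the mouse as a block changed the call of a gene given with its FDR, the blocked FDR stands beside it.

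The genes named were the 4 domain genes, genes within 1 Mb that reached 10 counts in all mice, the listed pathway and imprinted genes, and the 5 genes most like Igf2r in each measure. Some genes that this rule covers are not reported here. Members and lists were chosen with earlier results of these data known.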

Additional observations from a re-analysis of the deposited data

Results flagged for a closer look

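Of 12 sets of values over the 7 mice, 1 held a mouse far from the others, where chance alone gives 0.6. For the percentage of Gm23833 counts on the B6 allele, mouse 4 stood at 5.56%, and the estimates of the other 6 mice round to 0%. The value rests on 1 of 18 counts in that mouse. With the other 6 mice at about 0%, any such count would be flagged, so the chance figure does not apply to this set.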

How the results depend on the processing

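Of 297 recomputed tests, 281 kept their direction and their side of the threshold. Of these tests, 204 concerned the imprinted reference genes, and 191 of those were kept. The 297 include sign-flip tests with 1 mouse left out. Where all mice share a direction, such a test cannot change its outcome. Of 133 recomputed gene counts, 112 stayed within 1.5 times the reported count, and of 59 recomputed levels or percentages, 57 moved by less than 1 SD over mice. Genes within 1 Mb called toward B6, 9 as reported, were 7 with the block and 6 at an FDR under 0.05. The calls of Igf2r and Airn held in every alternative run. Leaving out each mouse moved the log2 fold change of Igf2r from -5.43 to -5.37, that of Airn from 4.02 to 4.15 and that of Slc22a3 from 0.22 to 0.42 (edgeR FDR 0.241 to 0.661). With the mouse as a replicate block, Slc22a3 passed the threshold, at a log2 fold change of 0.32 (likelihood-ratio FDR = 0.172) or 0.30 (quasi-likelihood FDR = 0.184). The blocked likelihood-ratio fit called 20.9% of all tested genes toward CAST. In both blocked fits, 8 genes within 1 Mb were called toward CAST and 9 genes of mannose 6-phosphate sorting were called, and the silencing factors called were 7 by the likelihood-ratio and 6 by the quasi-likelihood test. The block changed no call of Igf2r or Airn.

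Requiring 10 or more counts in all mice left 5 genes within 1 Mb called toward B6, since fewer genes were tested, 0 cation transporters and 2 silencing factors. The silencing factors called were also 2 with autosomal genes only, with one library size per mouse, and with estimates under 1e-06 taken as 0, an alternative chosen after seeing the data. At an FDR under 0.05, 3 sorting genes and 0 cation transporters were called. Leaving out 1 mouse gave 3 to 6 sorting genes, 0 to 2 cation transporters and 1 to 3 silencing factors. The share of all genes called is given here only for the reported fit and the blocked likelihood-ratio fit. Counts under the other settings are therefore not set against it, and the cause of these shifts was not tested. Without Rn7s1, Rn7s2 and Rn7sk in the total, Igf2r stood at 394.6 CPM and Slc22a3 at 2.20 CPM. The mean log2 ratio of Slc22a2, at 0.31 from 7 counts, ranged from -0.024 to 0.37 when 1 mouse was left out and reversed only without mouse 8 (-0.024, exact permutation P = 0.125). In the comparison with Peg10, log2 ratios gave an exact permutation P of 0.0625.

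Counts limit Slc22a2 and Plg, which could not be compared between alleles, and leave Slc22a3 and Mas1 with wide intervals. The smallest permutation P of 0.0156 with 7 mice, or 0.0312 with 6, bounds each single-gene test.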
